A study of Mus musculus with 2 samples.

Results

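The cells described are phagocytes of mouse tumours that carried the most RNA of Il1b, Olr1, Thbs1 and Ptgs2. They numbered 281 of 1407 gated phagocytes, among 28346 cell barcodes in all. The gate asked for at least 2000 UMIs (unique molecular identifiers, each standing for 1 captured RNA molecule) and at most 15% mitochondrial UMIs. It also asked for at least 4 of 9 myeloid genes (Lyz2, Ctss, Cybb, Csf1r, Ms4a7, Mrc1, C1qa, Tyrobp, Fcer1g). Cells with more than 2 UMIs over the tumour-compartment genes Hmga2, Sox9, Tafa1 and Hoxa9, or with any UMI of Cd3e or Cd3d, were left out. Members were the top 20% of gated cells, both libraries pooled, by the summed UMIs of Il1b, Olr1, Thbs1 and Ptgs2 per 10000 UMIs of the cell, called the score. The score genes therefore chose the members, and their levels are given as a description. A class made in this way is a range of a score and not a separate kind of cell.

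The tumours were grown from MC38, a mouse colon adenocarcinoma line, injected under the skin of C57BL/6 mice with the genotype given as WT. One group received a pool of MC38 cells carrying SPP1 by lentivirus, and the other a pool carrying the vector. Mice of both groups were given anti-PD-1, an antibody against a T cell checkpoint receptor, from day 7 at 10 mg/kg, 2 times a week for 2 weeks. The tumour of 1 mouse per group was dissociated and sequenced as 1 library, and no group without anti-PD-1 was included. There is therefore no replicate, no test across mice was possible, and intervals (95%) cover counting error only. Paired values are given with the library labelled vector first and the library labelled SPP1 second.

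Interleukin 1 beta, encoded by Il1b, is an inflammatory cytokine made as a precursor that is cut by caspase 1 after an inflammasome such as the NLRP3 complex has formed. Ptgs2 encodes cyclooxygenase 2, which makes the precursor of the prostaglandins, Olr1 encodes the scavenger receptor LOX-1 for oxidised lipoprotein, and Thbs1 encodes thrombospondin 1, a secreted matrix protein that binds CD36 and CD47. In tumours, Il1b and Ptgs2 are known from recently recruited monocyte-derived cells, and factors such as NF-kB, AP-1, C/EBP and CREB are known to act on promoters of inflammatory genes.

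Promoter sequences are shown for score genes and for 3 of the 4 genes that, outside the score, stood highest in members in both libraries. These genes were high in the same class, as sums over its cells, and not always in the same cells. Areg, for example, was detected in 12.5% and 22.9% of members. Each is the 250 bases before the start of transcription, from RefSeq on GRCm38.p6, which is an older build than the GRCm39 of the deposited counts, so that none of these coordinates apply to the counts. Capitals mark matches, on either strand, to 1 of 5 motifs: GGGNNNNNCC (NF-kB-like), TGACGTCA (CRE core), TGANTCA (AP-1-like), TTGCNNAA (C/EBP-like) and GACGTG (hypoxia response core). The table has no entry for Thbs1, Nrg1 or Dcstamp. The windows are chr2:129371140-129371389 on the minus strand for Il1b, chr6:129507166-129507415 on the minus strand for Olr1 and chr1:150099781-150100030 on the plus strand for Ptgs2. Those of the other genes are chr2:129309973-129310222 on the minus strand for Il1a, chr13:16011601-16011850 on the plus strand for Inhba and chr5:91139349-91139598 on the plus strand for Areg.
Il1b: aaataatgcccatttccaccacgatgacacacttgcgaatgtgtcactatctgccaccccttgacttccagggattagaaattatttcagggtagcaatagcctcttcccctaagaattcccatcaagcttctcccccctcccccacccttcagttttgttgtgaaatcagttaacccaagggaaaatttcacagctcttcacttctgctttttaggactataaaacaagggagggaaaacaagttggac
Olr1: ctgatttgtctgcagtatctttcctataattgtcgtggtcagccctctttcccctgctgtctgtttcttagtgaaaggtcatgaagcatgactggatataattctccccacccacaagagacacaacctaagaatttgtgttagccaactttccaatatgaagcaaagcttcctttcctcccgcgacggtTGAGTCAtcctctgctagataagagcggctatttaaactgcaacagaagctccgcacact
Ptgs2: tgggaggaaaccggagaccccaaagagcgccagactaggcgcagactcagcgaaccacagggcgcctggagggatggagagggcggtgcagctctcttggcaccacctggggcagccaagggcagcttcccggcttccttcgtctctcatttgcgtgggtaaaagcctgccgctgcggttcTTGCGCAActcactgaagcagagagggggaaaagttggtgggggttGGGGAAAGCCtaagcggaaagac
Il1a: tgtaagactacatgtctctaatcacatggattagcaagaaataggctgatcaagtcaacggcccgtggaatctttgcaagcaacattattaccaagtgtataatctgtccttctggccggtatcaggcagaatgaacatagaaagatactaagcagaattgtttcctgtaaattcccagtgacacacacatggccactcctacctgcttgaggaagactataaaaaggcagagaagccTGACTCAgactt
Inhba: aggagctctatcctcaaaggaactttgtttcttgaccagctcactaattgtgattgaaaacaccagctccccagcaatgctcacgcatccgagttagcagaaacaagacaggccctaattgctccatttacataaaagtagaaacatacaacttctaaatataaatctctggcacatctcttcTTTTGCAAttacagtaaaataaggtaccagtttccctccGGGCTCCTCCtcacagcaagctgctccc
Areg: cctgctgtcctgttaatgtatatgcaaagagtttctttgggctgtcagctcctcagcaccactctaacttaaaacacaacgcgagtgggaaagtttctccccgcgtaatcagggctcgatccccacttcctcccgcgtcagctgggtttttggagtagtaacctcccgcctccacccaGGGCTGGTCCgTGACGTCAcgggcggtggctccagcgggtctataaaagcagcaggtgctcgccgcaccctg

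The Olr1 window held an AP-1-like match at bases 60 to 54 before the start. Ptgs2 held a C/EBP-like match at bases 69 to 62 and an NF-kB-like match at bases 23 to 14. Inhba held the same pair of motifs, at bases 67 to 60 and 28 to 19. The Il1a window held an AP-1-like match at bases 12 to 6, and Areg an NF-kB-like match at bases 72 to 63 beside a CRE core at bases 61 to 54. The Il1b window held no match, which says only that these letters are not in it. No match of one motif overlapped a match of another in these windows. Of 32841 such windows in the table, 45.8% held the NF-kB-like letters, 1.55% the CRE core, 6.75% the AP-1-like, 9.57% the C/EBP-like and 5.20% the hypoxia core. A match is a description of letters and not a binding site.

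The library labelled vector held 14317 barcodes and the library labelled SPP1 14029, with medians of 10277 and 10218 UMIs per barcode. In both libraries, 93 barcodes had the same sequence, among them 7 gated cells and 1 member. Leaving these cells out gave 52 in place of 49 genes at least 2-fold higher in members and left 37 at least 2-fold lower. Members had medians of 8008 and 8583 UMIs, against 7843 and 7453.5 in the other gated cells, and 2712 and 2767 genes against 2730 and 2694.5. Doublet prediction marked 1 and 0 members. In cells with 10 or more UMIs of the tumour-compartment genes (8529 and 9237 cells), Spp1 stood at 161 and 149 CPM (UMIs per 1000000 UMIs of the class), so that this transcript was no higher in the library labelled SPP1. The labels do not give the species or sequence of the introduced SPP1.

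The score ran without a gap across the gated cells. The lowest member had 60.3 UMIs per 10000 and the highest other cell also 60.3, and 70 cells (32 members and 38 others) lay within 10% of the limit. Members had median scores of 97.8 and 93.8, with a highest value of 455, while other gated cells had medians of 10.9 and 7.42, and 229 of them (20.3%) had no UMI of any score gene. Tumour-compartment cells had a median score of 1.06 in each library, with 3 cells in each at or above the limit. T cells (85 and 61 cells with at least 2 UMIs of Cd3e and Cd3d) had a median of 0 in each, and none of them reached the limit.

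**Figure D1:**
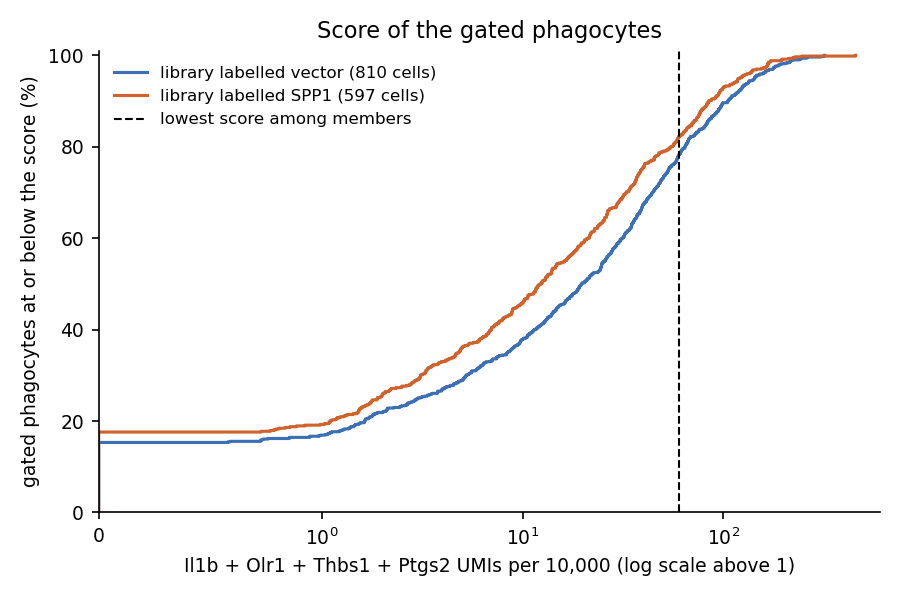
Share of gated phagocytes (%, vertical axis) at or below each value of the score (UMIs of the 4 genes per 10,000, horizontal axis, logarithmic above 1), 1 line per library. The curves rise smoothly through the dashed line, the lowest member's 60.3, with 21.7% and 17.6% of cells above it in the libraries labelled vector and SPP1.

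Among the score genes, Il1b stood at 4284 CPM (4177 to 4393) in members and 799 in other gated cells of the library labelled vector, and at 3302 (3183 to 3424) and 481 in the library labelled SPP1. Thbs1 stood at 2940 (2852 to 3031) against 482, and at 3631 (3506 to 3758) against 499. Ptgs2 stood at 3641 (3543 to 3742) against 504, and at 3181 (3064 to 3301) against 411. Olr1 was far lower, at 198 (176 to 223) against 38.02, and 187 (159 to 218) against 21.5, and gave 1.79% and 1.81% of the members' score UMIs. The score was thus carried by Il1b (38.7% and 32.1% of its UMIs), Ptgs2 (32.9% and 30.9%) and Thbs1 (26.6% and 35.2%). Counts were not divided by gene length, so that these levels do not order the genes by number of transcripts made.

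Because a score gene has to be high in cells chosen by it, each was also compared with members chosen by the other 3 genes. Il1b then had log2 ratios of 1.56 (1.51 to 1.62) and 2.11 (2.03 to 2.20), against 2.42 and 2.78 with the full score. Olr1 kept 2.32 and 3.10, Thbs1 1.62 and 1.87, and Ptgs2 1.82 and 2.00. Each score gene thus stood at least 2-fold higher in cells that the other 3 had chosen, in both libraries. With the full score, all 4 genes were detected together in 86 of 281 members (30.6%) and 3 of them in 140. Of 1126 other gated cells, 38 (3.37%) had all 4. The sum of these genes chose the members, so that this is a description only. The shares of T cells with a UMI were low for Il1b (1.18% and 1.64%), Thbs1 (2.35% and 0%) and Olr1 (0% and 1.64%), and 3.53% and 13.1% for Ptgs2. Their depth was also lower, with medians of 3766 and 3787 UMIs. Tumour-compartment cells had Ptgs2 at 286 and 278 CPM and detected it in 64.4% and 63.7% of cells, while Il1b was at 12.5 and 5.93 CPM there. These cells were deeper than members, with medians of 14082 and 13181 UMIs. With each cell thinned to 2000 UMIs, Ptgs2 was detected in 28.9% and 29.7% of them, against 86.4% and 80% of members.

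Dcstamp, which encodes a membrane protein needed for the fusion of macrophages and osteoclast precursors, was the marker given for these cells that the score did not use. It stood at 254 CPM (229 to 282) against 84.2, and at 283 (249 to 320) against 47.8, with log2 ratios of 1.59 (1.39 to 1.80) and 2.57 (2.29 to 2.85). It was detected in 30.7% and 25.7% of members against 16.1% and 8.54% of other gated cells, and in 0 of 85 and 0 of 61 T cells. With each cell thinned to 2000 UMIs, the shares were 17.6% and 18.1% against 9.46% and 4.07%. Most members had no Dcstamp UMI, and the 3 cells with the most held 27.7% and 29.6% of the members' Dcstamp UMIs. Of the 7 measured cell fusion and osteoclast genes, Dcstamp alone was at least 2-fold higher in both libraries. Atp6v0d2, a proton pump subunit of osteoclasts that was too low to be measured by the rule, was at 9.86 and 10.2 CPM against 62.7 and 34.0, chosen after its values were seen.

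Most macrophage markers stood lower in members than in the rest of the gate. The gate itself asked for myeloid genes, among them Csf1r, C1qa, Ms4a7, Mrc1 and others, so that their presence says nothing about what the gated cells are. Csf1r, the receptor for the macrophage growth factor, was near level, at 429 and 462 CPM against 406 and 482. Of the 12 macrophage markers, however, 10 lay below 0 on the log2 scale in both libraries, with medians of -0.73 and -0.71. C1qa, a complement subunit, was at 580 and 888 CPM against 1200 and 1687, and Adgre1, which encodes F4/80, at 263 and 253 against 464 and 553. Ms4a7 was at 97.2 and 109 against 339 and 463. Monocyte markers lay the other way: of 6 measured, 5 were above 0 in both libraries, with medians of 0.45 and 0.67. Nr4a1, which is also on the list of immediate early genes, and Plac8 stood highest. In the library labelled SPP1, a few cells held most of the members' Plac8 UMIs. Ccr2, the receptor by which monocytes are recruited, stood at 789 and 752 CPM against 578 and 323. Ly6c2 and Chil3, classical monocyte genes below the count minimum of 500 UMIs, were at 45.1 and 41.9 against 9.31 and 4.25, and at 117 and 97.4 against 24.3 and 12.3, but 3 cells held 69.3% and 59.3% of the members' Chil3 UMIs.

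Markers of other cells were low in the members. The 13 T and NK cell markers summed to 9.16 and 5.66 CPM, with Cd3e, Cd3d, Cd3g, Cd4 and Ncr1 at 0 (Cd3e and Cd3d by the gate), and the 8 B cell markers to 18.3 and 16.99. Of 9 mast cell and basophil markers 7 were at 0, and the list summed to 12.7 and 5.66 CPM against 2.09 and 3.75. Endothelial markers summed to 27.5 and 12.5 CPM against 28.1 and 43.0, and fibroblast markers to 460 and 430 against 435 and 402. The neutrophil list summed to 267 and 240 CPM against 245 and 258 in other gated cells, with 7 of 14 genes at 0, among them S100a9, Cxcr2 and Ly6g. S100a9 had only 54 UMIs over all barcodes, so that its absence says little about these cells. Conventional dendritic cell markers summed to 213 and 214 CPM against 299 and 267. Markers of the tumour compartment summed to 2307 and 3486 CPM against 2016 and 2513, of which 1909 and 2950 CPM were Fn1, fibronectin, a gene that monocytes also express. With cells holding neutrophil or dendritic cell UMIs left out, 48 genes were at least 2-fold higher in members and 43 lower, and all 14 named genes each way were still 2-fold apart. With predicted doublets left out, the counts were 48 and 37. The part of the other cell types in the results was not tested. The label macrophage was kept only in the sense of the gate, and the cells are called members.

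Across 3937 genes with at least 500 UMIs over all gated cells and at least 50 in each library, 49 (1.24%) were at least 2-fold higher in members than in other gated cells in both libraries, and 37 (0.94%) at least 2-fold lower. Together these were 86 genes (2.18%). The median log2 ratio over all genes was -0.04 and -0.06. Of the 3937 genes, 1215 lay above 0 in both libraries and 1715 below 0 in both. The counts above and below 0 given for each list are to be read beside these. The score genes were left out of these counts. Outside them, the gene that stood furthest above the other gated cells was Nrg1, which encodes neuregulin 1, a ligand of the ERBB receptors, followed by Inhba, Il1a, Areg, Gab1, Dcstamp, Crem, F10, Clec4e, Antxr2, Cd80, Vegfa, Malt1 and Clec7a. Furthest below stood Ccl8, Ch25h, Fcrls, Ccl12, Ms4a7, Hspa1a, Folr2, Col14a1, Hspa1b, Mir99ahg, Igfbp4, Olfml3, Hmox1 and Igf1. Both orders use the smaller of the 2 libraries' log2 ratios.

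**Figure D2:**
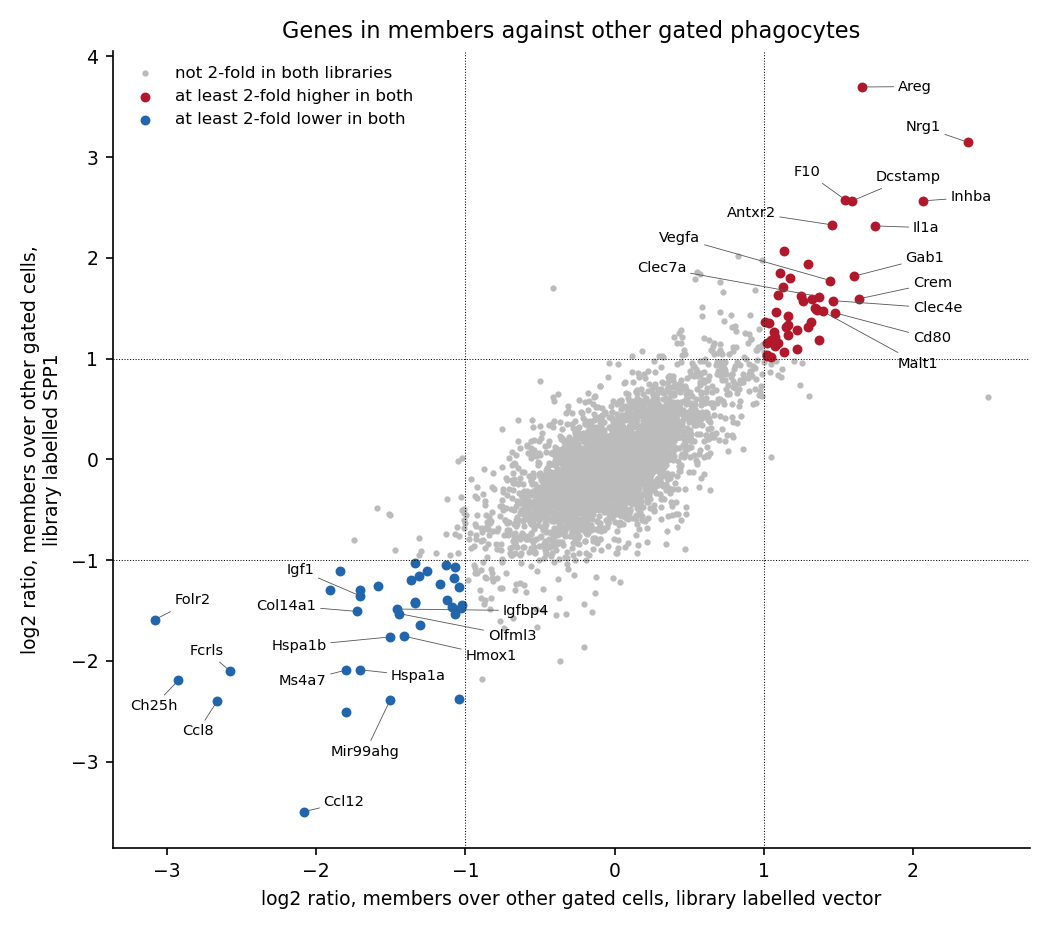
Log2 ratio of each of 3937 genes, members over other gated cells, in the library labelled vector (horizontal axis) and the library labelled SPP1 (vertical axis). Points in colour lie at least 2-fold from 0 in both (49 higher, 37 lower), and the 14 furthest each way are named; Nrg1 and Areg lie at the upper right and Ccl8 and Ccl12 at the lower left.

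Beside Il1b, 3 of 9 measured genes of the interleukin 1 list were at least 2-fold higher in members. Il1a, the second interleukin 1 ligand, stood at 469 CPM (434 to 506) against 140, and at 741 (685 to 800) against 149, with log2 ratios of 1.75 (1.59 to 1.90) and 2.32 (2.15 to 2.48). It was detected in 44.9% and 60.0% of members, against 22.6% and 27.4% of other gated cells and 0% and 1.64% of T cells. Nlrp3, the inflammasome sensor, was at 862 and 787 CPM against 392 and 376, and Il1rn, which encodes the receptor antagonist that blocks interleukin 1, at 479 and 485 against 236 and 237. The ligands and their antagonist were thus high in the same class. None of the 9 was 2-fold lower, 5 lay above 0 and 3 below 0 in both libraries, and the medians were 0.54 and 0.84. Aim2, a sensor of cytosolic DNA, and Casp4, the inflammatory caspase for lipopolysaccharide, stood lowest in the list, with log2 ratios of -0.46 and -0.90, and of -0.39 and -0.43.

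Of 7 other genes measured in the prostaglandin and leukotriene list, 1 lay above 0 and 5 below 0 in both libraries. Their medians were -0.18 and -0.34. None was 2-fold higher, which says little for so short a list, since only 1.24% of all genes were. Hpgds, the prostaglandin D synthase of blood cells, was at 37.3 and 24.9 CPM against 76.8 and 130, with log2 ratios of -1.04 (-1.48 to -0.62) and -2.38 (-3.07 to -1.76). Tbxas1, thromboxane synthase, was at 180 and 173 against 250 and 226. Pla2g4a, the phospholipase that frees arachidonic acid for cyclooxygenases, was at 162 and 156 against 147 and 119, log2 ratios of 0.14 (-0.08 to 0.36) and 0.39 (0.11 to 0.67). Ptger4, a receptor for prostaglandin E2, had ratios of opposite sign in the libraries, 0.42 (0.20 to 0.63) and -0.42 (-0.76 to -0.10).

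Among scavenger and pattern receptors, 2 C-type lectins of the Syk pathway, Clec7a and Clec4e, stood out beside Olr1. Clec7a, which encodes the beta-glucan receptor dectin 1, stood at 2040 CPM (1966 to 2115) against 789, and at 1825 (1737 to 1917) against 596. Clec4e, encoding mincle, stood at 280 (254 to 309) against 102, and at 282 (248 to 319) against 94.6. Malt1, a paracaspase that acts after such receptors, was at 1599 and 1272 CPM against 607 and 460. It was detected in 90.9% and 91.4% of members, and also in 72.9% and 62.3% of T cells. These 2 lectins were the only genes at least 2-fold higher of 11 measured in the list, whose medians were -0.09 and 0.05. Stab1 and Cd68 stood lowest, at 71.2 and 84.9 CPM against 121 and 206, and at 249 and 307 against 412 and 498. Cd36, a scavenger receptor that binds thrombospondin 1, was near level, with log2 ratios of -0.24 (-0.50 to 0.01) and -0.18 (-0.61 to 0.23).

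Among growth factors, some stood higher and some lower in members. Nrg1 stood at 414 CPM (381 to 449) against 80.0, and at 343 (306 to 384) against 38.8, with log2 ratios of 2.37 (2.19 to 2.56) and 3.15 (2.86 to 3.43). It was detected in 51.1% and 41.0% of members, 18.5% and 11.99% of other gated cells and 8.24% and 6.56% of T cells. Tumour-compartment cells had Nrg1 at 259 and 152 CPM, so that members lay above them and other gated cells lay under them. Areg, amphiregulin, a ligand of the EGF receptor, was at 121 CPM (104 to 141) against 38.4, and at 237 (206 to 271) against 18.3. Few cells carried Areg: it was detected in 12.5% and 22.9% of members and 10.6% and 6.56% of T cells, and 3 cells held 33.1% and 42.1% of the members' UMIs. Without these 3 cells in each library, its ratios were 1.10 and 2.96.

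Inhba, which encodes the subunit of activin A, stood at 171 CPM (150 to 193) against 40.7, and at 178 (151 to 208) against 30.02. The tumour compartment had as much or more Inhba, 208 and 344 CPM. Vegfa, the main angiogenic factor, was broadly detected, in 88.6% of members of each library against 58.5% and 53.3% of other gated cells and 11.8% and 18.0% of T cells. Tumour-compartment cells, which had higher median UMIs than members, detected it in 86.5% and 88.7% of cells, at 286 and 312 CPM. With each cell thinned to 2000 UMIs, Vegfa was detected in 39.9% and 43.1% of tumour-compartment cells and 72.2% and 71.4% of members. In members Vegfa stood at 931 CPM (882 to 983) against 342, and at 909 (848 to 974) against 266. Osm, oncostatin M, a cytokine of the interleukin 6 family, was at 856 and 957 against 400 and 308. Of 12 measured growth and angiogenic factors, 4 were at least 2-fold higher (Inhba, Areg, Vegfa, Osm) and 2 at least 2-fold lower (Pdgfc, Igf1). Nrg1 was not on the list. Igf1, a growth factor of resident macrophages, was at 31.7 and 44.2 CPM against 103 and 113, and 3 cells held 66.7% and 84.6% of what the members had. Spp1, osteopontin, on the same list, did not separate the classes, at 2240 and 2928 CPM in members against 2235 and 2590, log2 ratios of 0.00 (-0.05 to 0.06) and 0.18 (0.11 to 0.24).

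Of the partners of thrombospondin 1 and the coagulation genes, F10 alone was 2-fold higher in both libraries among 10 measured. The list was evenly split, with 5 genes above 0 and 5 below 0 in both libraries. Its medians were 0.004 and 0.07, and Calr and F13a1 stood lowest. F10, coagulation factor X, stood at 210 CPM (187 to 235) against 71.9, and at 254 (222 to 289) against 42.5, and was detected in 54.0% and 57.1% of members, against 20.8% and 17.3% of other gated cells and no T cell. Plaur, the urokinase receptor, was at 431 and 482 against 235 and 203, log2 ratios of 0.88 and 1.25. F3, tissue factor, which starts coagulation, lay under the count minimum and was chosen after its values were seen: it stood at 71.9 CPM (58.6 to 87.2) against 16.7, and at 65.7 (49.9 to 84.9) against 19.01. Of other genes on the list, Cd47, a receptor for thrombospondin 1, had log2 ratios of 0.08 (-0.07 to 0.22) and 0.17 (-0.02 to 0.36), and Cd44 of 0.27 (0.20 to 0.33) and 0.54 (0.46 to 0.61).

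Some hypoxia and arginine genes were also higher. Of 19 measured hypoxia and glycolysis genes, 15 lay above 0 in both libraries and 3 were at least 2-fold higher: Vegfa, Hilpda and Mxi1, with list medians of 0.19 and 0.58. Hilpda, an inhibitor of fat breakdown that is induced by hypoxia, was at 290 and 422 CPM against 141 and 166. Mxi1, an antagonist of Myc, was at 472 and 436 against 233 and 214. Gapdh and P4ha1 stood lowest, at log2 ratios of -0.23 and -0.16, and of -0.32 and -0.62. In the arginine and alternative activation list, Arg2, Slc7a2 (a transporter of arginine) and Slc7a11 (the cystine transporter) were at least 2-fold higher of 10 measured. Slc7a2 was at 834 and 797 CPM against 394 and 290. Arg1, arginase 1, differed by less, at 1815 and 2201 against 1406 and 1506, log2 ratios of 0.37 (0.30 to 0.43) and 0.55 (0.47 to 0.62).

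Most NF-kB targets lay above 0, but by less than 2-fold. Of 19 measured, 14 lay above 0 in both libraries, 4 below 0 in both, and the medians were 0.77 and 0.66. Cxcl1, a chemokine for neutrophils, was at 547 and 635 CPM against 222 and 255, and with Osm made up the 2 genes past 2-fold. Cxcl2 was the most abundant, at 4584 and 4912 against 2691 and 3102. Nfkbia and Tnfaip3, inhibitors of NF-kB that it induces, had log2 ratios of 0.95 and 0.56, and of 0.97 and 0.68. Ccl3 and Ccl4, chemokines for T cells and monocytes on the same list, lay lower in members, with log2 ratios of -0.51 and -0.86, and of -0.54 and -0.92. Crem, a CREB family factor induced by cyclic AMP, was at 450 and 437 CPM against 145 in both libraries, log2 ratios of 1.64 (1.48 to 1.79) and 1.59 (1.40 to 1.78). It was detected in 73.9% and 74.3% of members, but also in 71.8% and 60.7% of T cells. Fosl2, an AP-1 subunit, was the 1 gene of 20 immediate early and stress genes at least 2-fold higher, at 704 and 609 against 278 and 215, while Jun was at 295 and 345 against 565 and 728.

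Several CC chemokines were lower in members. Of 10 measured, 5 were at least 2-fold lower in both libraries and none higher, with medians of -0.79 and -1.14. Ccl2, the ligand of Ccr2, was at 795 CPM (750 to 843) against 1637, and at 874 (814 to 938) against 2102, and Ccl7 at 353 and 376 against 873 and 1173. Ccl12 was at 113 and 48.7 CPM against 477 and 549, and Ccl8 at 59.2 and 79.3 against 375 and 418, log2 ratios of -2.66 (-3.00 to -2.35) and -2.40 (-2.77 to -2.05). What Ccl8 the members had came mostly from 3 cells, which held 54.8% and 72.9% of it. Ccl17 was the fifth, at 35.9 and 26.0 CPM against 129 and 56.3. Ccl6 and Ccl9 were near level.

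Most genes of resident-type macrophages also lay below 0. Of 13 measured, 12 lay below 0 in both libraries and 5 were at least 2-fold lower (Fcrls, Folr2, Ccl8, Selenop, Maf), with medians of -0.88 and -1.28. Fcrls was at 17.6 and 62.3 CPM against 105 and 267, and Folr2, folate receptor beta, at 7.05 and 34.0 against 59.7 and 102. Selenop, a selenium carrier, was at 266 and 328 against 672 and 879, and Maf, a factor of macrophage identity, at 196 and 178 against 400 and 495. Lipid-handling genes lay lower by less, 9 of 13 below 0 in both, among them Apoe at 1225 and 1553 CPM against 2114 and 3500, and Cd63 alone passed 2-fold.

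The proliferation list lay below 0 for all 14 measured genes in both libraries, with medians of -0.88 and -1.01, and Ccna2 and Stmn1 were at least 2-fold lower. Ccna2, cyclin A2, was at 16.9 and 30.6 CPM against 63.3 and 75.3. Hspa1a and Hspa1b, heat shock genes that tissue dissociation is known to induce, were at 86.7 and 69.1 CPM against 282 and 294, and at 86.0 and 66.8 against 244 and 227. The copies are nearly identical and reads may be split between them, so their separate values are uncertain. Hmox1, heme oxygenase 1, was at 81.7 and 52.1 against 218 and 176.

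Antigen presentation genes differed more between classes in one library than in the other. Cd74, the invariant chain, was at 5900 CPM (5774 to 6028) against 5214 in the library labelled vector, and at 5291 (5140 to 5445) against 3257 in the library labelled SPP1. Of 8 measured genes of the list, 6 lay above 0 in both libraries, with medians of 0.14 and 0.68. Only Cd80, a costimulatory ligand for T cells, passed 2-fold, at 340 and 271 CPM against 122 and 98.8, and was detected in 77.8% and 77.1% of members against 41.8% and 37.2% of other gated cells and 11.8% and 26.2% of T cells. Of 12 measured interferon gamma response genes, 3 lay above 0 and 7 below 0 in both libraries, and none passed 2-fold. Their medians were -0.29 and -0.11, and Psmb9 and Iigp1 stood lowest. Cd274, the ligand of PD-1, stood highest in the list, at 295 and 245 CPM against 175 and 150.

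**Figure D3:**
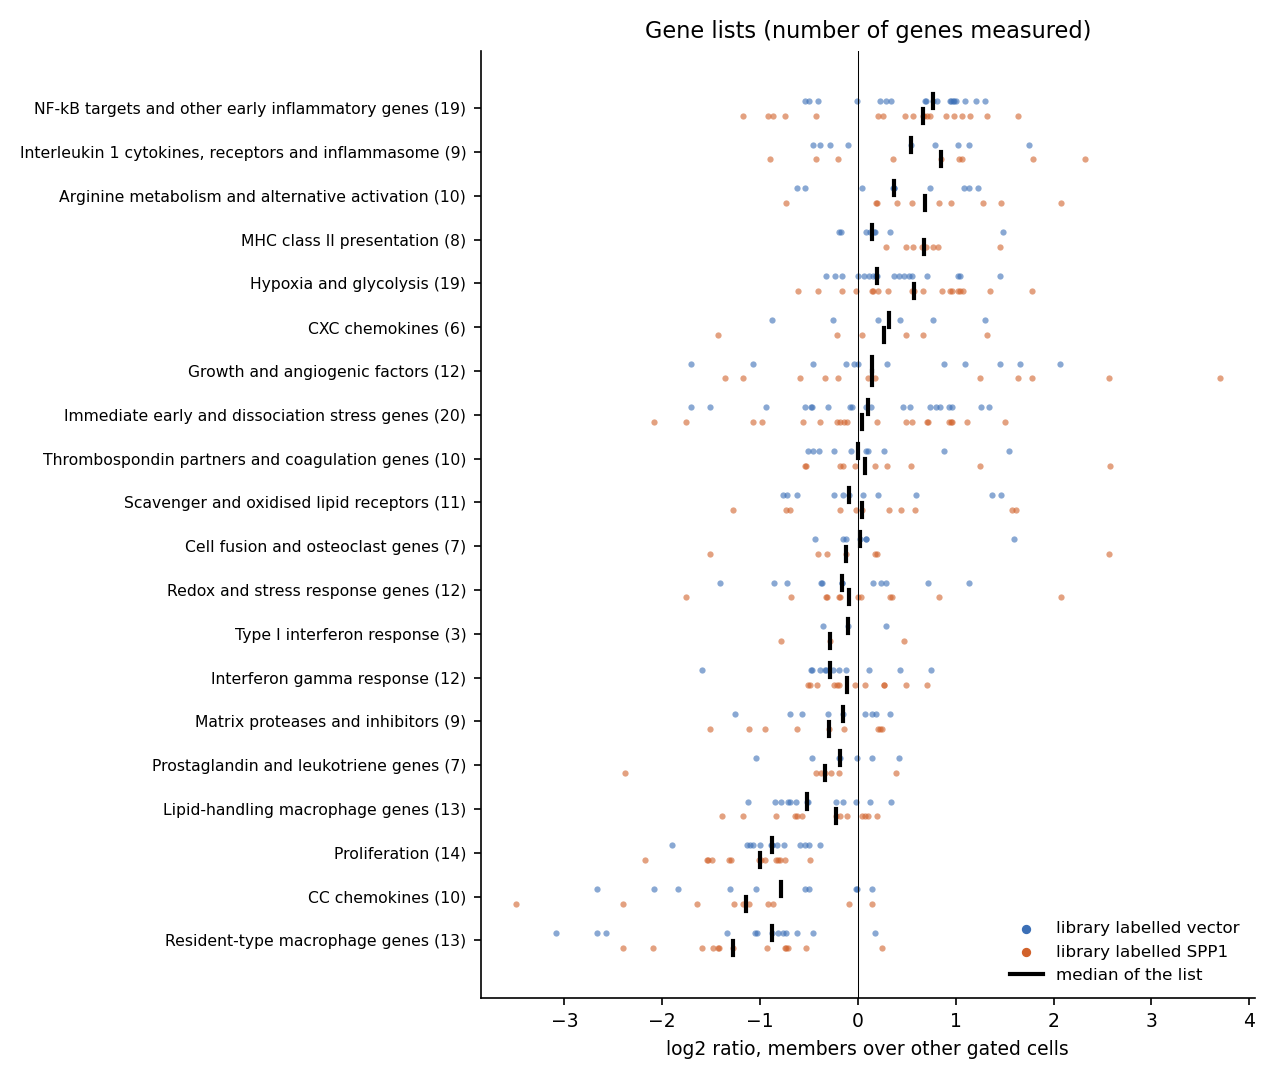
Log2 ratio of each measured gene (points), members over other gated cells, by gene list and library, with the median of each list as a black bar. NF-kB target and interleukin 1 lists have medians of 0.54 to 0.84, and the proliferation, CC chemokine and resident-type lists of -0.79 to -1.28.

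The called genes were also compared in their promoters. Of the 49 higher genes 36 had windows in the RefSeq table, 57 windows in all, and of the 37 lower genes 27 had 37 windows. The hypoxia core was in 10 of the 57 windows (17.5%), against 1 of 37 windows (2.70%) of the lower genes and 5.20% of all. These were 1 window for each of 10 genes that included Hilpda, Mxi1, Nlrp3, Cxcl1 and Vegfa. For Vegfa the match lay in window 2, at bases 211 to 206 before another start of transcription. Window 2 is chr17:46025164-46025413 and window 1 chr17:46032378-46032627, both on the minus strand. The match thus lay downstream of the start that follows window 1, and not in the sequence before it. Window 1 of Vegfa held an NF-kB-like match and no hypoxia core. The CRE core was in 3 windows (5.26%), of Areg, Arl5b and Errfi1, against 1.55% of all. NF-kB-like letters were in 56.1% against 45.9% of the lower genes and 45.8% of all. AP-1-like and C/EBP-like letters were in 7.02% and 8.77% of the windows of the higher genes, near the 6.75% and 9.57% of all. No test was made of these shares.

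Since the score is continuous, the gated cells were also divided into 5 equal parts by score, of 281 or 282 cells, the highest being the members. Vegfa stood at 96.2, 186, 337, 625 and 931 CPM from the lowest to the highest part in the library labelled vector, and at 78.1, 173, 348, 528 and 909 in the library labelled SPP1. Nlrp3 likewise had steps up at every part, from 200 to 862 and from 192 to 787, as did Crem, F10, Gab1 and Il1rn. Ccl8 had steps down at every part, from 646 to 59.2 and from 590 to 79.3, as did C1qa, Ms4a7, Fcrls, Folr2 and Col14a1. The genes that stood furthest above the other gated cells did not all step up throughout: Inhba and Areg had 3 steps up and 1 down in each library, Nrg1 had 1 step down in the library labelled SPP1, and Il1a and Dcstamp had 1 in the library labelled vector. Il1a was at 34.1, 129, 110, 245 and 469 CPM, and at 34.6, 115, 165, 317 and 741. Csf1r lay between 396 and 429 CPM in all parts of the library labelled vector and between 440 and 551 in the other. Hspa1a was highest in the middle part, at 368 and 405 CPM, so that its level did not step down through all parts.

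The members were not alike in which score gene led. Il1b had the most UMIs of the 4 in 76 and 26 members (43.2% and 24.8%), Thbs1 in 45 and 43 (25.6% and 41.0%), Ptgs2 in 53 and 31 (30.1% and 29.5%), Olr1 in none, and 7 members had ties. Members led by Ptgs2 had Il1a at 676 and 1282 CPM, against 408 and 511 in those led by Il1b and 259 and 521 in those led by Thbs1. Ccl2 was at 1002 and 1612 CPM in members led by Ptgs2, at 700 and 449 in those led by Il1b, and at 656 and 547 in those led by Thbs1. Arg1 was at 1241 and 1863 CPM in members led by Il1b, under the 2443 and 2049 of those led by Thbs1 and the 1954 and 2725 of those led by Ptgs2. These groups were cut from the score genes, have 26 to 76 cells each and are given as a description.

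Members made up 21.7% (18.9% to 24.7%) and 17.6% (14.6% to 20.9%) of gated cells, which gave a log2 ratio of SPP1 over vector of -0.30 (-0.62 to 0.01). This difference was within counting error. Of all barcodes they were 1.23% and 0.748%, a log2 ratio of -0.72 (-1.06 to -0.37), and the gate itself held 5.66% and 4.26% of barcodes. With 1 mouse per group, a difference between libraries cannot be told apart from one between the groups. The share depended on the score: it was -0.56 (-1.04 to -0.08) on the log2 scale for the top 10% of cells, -0.51 (-0.83 to -0.18) without Thbs1 in the score and -0.09 (-0.40 to 0.22) without Il1b.

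Within members, the levels of the score genes in the libraries are given as a description, since the same genes chose the members by their sum, and more of one goes with less of another by construction. Thbs1 was higher in the library labelled SPP1, by a log2 ratio of 0.30 (0.24 to 0.37), and Il1b and Ptgs2 were lower, at -0.38 (-0.44 to -0.31) and -0.19 (-0.26 to -0.13). Olr1 was at -0.08 (-0.37 to 0.20). Of 825 genes with at least 500 UMIs in the members, 9 (1.09%) were at least 1.5-fold higher in the library labelled SPP1 and 3 (0.364%) at least 1.5-fold lower, with intervals excluding no difference. Together these were 1.45%, and 2.67% of the same genes passed in the other gated cells. The median size of the log2 ratio was 0.15 in members and 0.12 in the others, which describes how far the libraries lay apart for a gene of no particular interest.

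Il1a, Csf2rb and Nt5e were among the genes higher in the members labelled SPP1 that did not pass in the other gated cells. Il1a had a log2 ratio of 0.66 (0.50 to 0.82) in members and 0.09 (-0.07 to 0.25) in the others. Csf2rb, the receptor chain shared by GM-CSF and interleukin 3, stood at 353 and 641 CPM, a ratio of 0.86 (0.68 to 1.04), against -0.07 (-0.19 to 0.06) in the others, with a near-identical copy in mice that makes its count uncertain. Nt5e, the enzyme CD73 that makes adenosine, stood at 276 and 463 CPM, 0.75 (0.54 to 0.95) against -0.30 (-0.46 to -0.15). F13a1, coagulation factor XIII, was higher in both classes, at 0.96 (0.76 to 1.16) and 1.03 (0.95 to 1.12), as were C1qa (0.61 and 0.49), Ccl4 (0.62 and 1.00), Fn1 (0.63 and 0.38) and, by less in the others, the metallothionein Mt1 (0.78 and 0.27). Gatm (-0.62), Pdia6 (-0.67) and Plxdc2 (-0.65) were lower in members, and Plxdc2 also in the others (-0.96). Whether classes differed in these ratios was not tested.

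MHC class II genes showed the opposite pattern, with the larger library difference outside the members. H2-Ab1 had a log2 ratio of -0.30 (-0.38 to -0.23) in members and -0.95 (-0.99 to -0.90) in the other gated cells, H2-Aa of -0.44 and -1.02, H2-Eb1 of -0.39 and -1.04, and Cd74 of -0.16 and -0.68. In these 4 genes the members of both libraries lay closer to each other than the other gated cells did, and this has no replicate check.

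**Figure D4:**
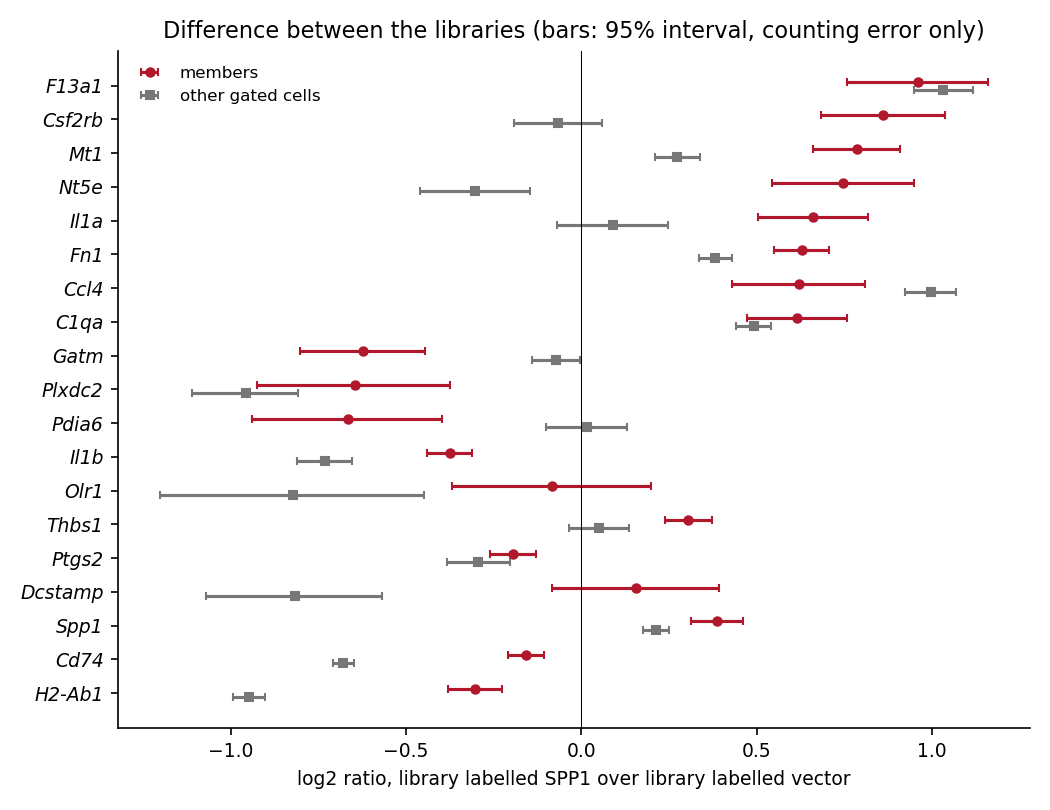
Log2 ratio, library labelled SPP1 over library labelled vector, of named genes in members (circles) and other gated cells (squares), with 95% intervals of counting error. Il1a, Csf2rb and Nt5e have intervals above 0 only in members, F13a1 in both classes, and H2-Ab1 and Cd74 lie further below 0 in the other gated cells than in members.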

How the data were processed

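Single-cell RNA was measured in 2 libraries, 1 per group. Raw UMI counts for each gene and barcode were deposited by the authors, who used Cell Ranger 2.1.1 on GRCm39, per the submitters' processing notes. How cells were called, and which annotation was used, is not given in the sources used here. Counts were summed over the cells of each class and library and given as CPM, with exact Poisson intervals (95%). Ratios had exact conditional binomial intervals, shares of cells Clopper-Pearson intervals, and ratios of shares intervals on the log scale. No test was possible with 1 library per group. Cells were compared within each library, and genes counted as at least 2-fold apart had to be so in both. Doublets were predicted with scanpy's Scrublet at an expected rate of 0.06 and were kept, apart from 1 alternative.

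Genes named by rule were the 14 furthest each way by the smaller of the 2 libraries' log2 ratios. To these came up to 8 each way between libraries, and up to 4 of each list. Further genes of the lists, among them Nfkbia, Tnfaip3, Jun, Ccr2, Cd44 and Cd47, were named outside this rule. Left unnamed were the score genes, ribosomal, mitochondrial and haemoglobin genes, antigen receptor segments, genes with clone names, Y-linked genes, Xist and Tsix, and genes under 10% of their level in tumour-compartment cells. The members and lists were chosen with earlier results of these data known. Nrg1 is a symbol of 2 genes in the table, and ENSMUSG00000062991 is meant. The code was tested on simulated data, in which 100% of genes set 3-fold higher in members and 84% of those set 3-fold lower were recovered, with 0 unchanged genes called (3921 genes). For the libraries within members, 100% of genes set 2-fold higher and 74% of those set 2-fold lower were recovered. The simulated sums had counting error only, with no spread between cells and no choice of members by a score. They therefore do not measure false calls in the real cells. Promoters came from RefSeq (GRCm38.p6). Python 3.11.15, numpy 2.4.6, scipy 1.17.1, pandas 2.3.3, scanpy 1.11.5 and matplotlib 3.10.9 were used.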

Additional observations from a re-analysis of the deposited data

How the results depend on the processing

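The count of genes at least 2-fold lower in members, 37 as reported, was 76 for the top 10% of gated cells, 87 with at least 200 UMIs per gene, 22 with at least 1000 UMIs per gene and 62 with gated cells thinned to 2000 UMIs. The count of genes at least 1.5-fold apart between libraries, 12 as reported, was 75 with at least 200 UMIs per gene and 7 with at least 1000. The filters change how many genes are compared; for the other settings the cause was not tested. The count at least 2-fold higher, 49 as reported, ran from 35 (score without Ptgs2) to 73 (at least 200 UMIs per gene). The 14 higher and 14 lower named genes kept their direction in both libraries under every setting run. All 14 higher genes were at least 2-fold apart in each setting except the top 30% of cells, where 13 were, and 12 to 14 of the lower genes were. The interval of the log2 ratio of the members' share reached 0 as reported and excluded it for the top 10% (-0.56), the top 30% (-0.43), at least 1000 UMIs per cell (-0.30), the score on thinned cells (-0.33) and the score without Thbs1 (-0.51) or Ptgs2 (-0.39). Leaving out cells with barcodes found in both libraries, and the 3 cells highest in each gene, were chosen after seeing the data. No paired analysis was possible because each group has 1 library. Genes with few UMIs in the members, such as Folr2 and Ccl17, rest on few cells.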

Other observations

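Further genes are named here, chosen after their values were seen. All but Plac8 were at least 2-fold higher in members in both libraries. Nr4a2, a nuclear receptor induced early after stimulation, stood at 1380 and 1486 CPM against 574 and 499, and its relative Nr4a3 at 658 and 584 against 294 and 218. Pde4b, a phosphodiesterase that breaks down cyclic AMP, was at 1433 and 1420 CPM against 639 and 562. Cd14, the co-receptor for lipopolysaccharide, was at 1640 and 1468 against 767 and 658, and Sgk1, a kinase induced by serum and glucocorticoids, at 1147 and 1205 against 555 and 529. Plac8, a monocyte gene, differed between libraries in its contrast, at 159 and 69.1 CPM against 27.9 and 45.03, and 3 cells held 34.7% and 77.0% of the members' UMIs.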
